A study of Homo sapiens with 8 samples.

Results

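The cassette exons described here have a listed length that is not a multiple of 3, so that skipping such an exon inside a coding region shifts the reading frame. Not every member lies in a coding region or keeps its listed length when spliced, as given below. They were measured in JSL1 cells, a monoclonal line derived from the Jurkat T lymphocyte leukemia line, in which the RNA-binding protein CELF2 was left intact or depleted. Unstimulated control cells and unstimulated shCELF2 cells were compared with each other, as were stimulated control cells and stimulated shCELF2 cells. Stimulated cells had the phorbol ester PMA at 20 ng/mL for 48 h. Depleted cells carried a stably integrated, doxycycline-inducible short hairpin against CELF2. Each group had 2 libraries of polyA RNA, 8 in all. The sources used here do not give whether control cells carried a hairpin or received doxycycline, nor whether the 2 libraries of each group are separate cultures. A local splicing variation (LSV) is a set of junctions that share an exon, and the inclusion of a cassette exon is the authors' expected share of the junction that enters or leaves it, given as 1 value for each group. The exons were LSVs of 2 junctions present with and without PMA, with exactly 1 exon inside the longer junction, over 30 nt long and with a mean inclusion over the 4 groups of 10% to 90%. They were thus chosen by the inclusion values that are described below, which left 1186 exons of 19149 cassette exons measured in both states, in 1075 genes. The 1186 were 55.3% of the 2143 variable cassette exons of this length. The other 957 variable exons keep the frame.

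Most internal exons of a messenger RNA are coding, so an exon whose length is not a multiple of 3 alters every codon after it. The shifted frame usually meets a stop codon early. A stop codon well upstream of the last exon junction marks an mRNA for nonsense-mediated decay, a surveillance pathway that shortens its life. An exon that brings in such a stop is often called a poison exon. CELF2 is a splicing regulator of the CUGBP and ELAV-like family that binds UGU-rich RNA, and PMA mimics part of T cell receptor signalling by activating protein kinase C.

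To show what the shift does, exons were matched to GENCODE 29 transcripts by gene, exon length and the lengths of both flanking introns, and sequences were taken from those transcripts. Coordinates are those of the tables, in hg19. Every run reads 5′ to 3′ on the transcribed strand. CELF2 itself has such an exon, 80 nt at chr10:11308561-11308640 on the plus strand. PTBP2, the neuronal paralog of the splicing repressor PTBP1, has 1 of 34 nt at chr1:97271975-97272008, also on the plus strand. Both exons are printed whole because the results return to them.
CELF2, 80 nt exon: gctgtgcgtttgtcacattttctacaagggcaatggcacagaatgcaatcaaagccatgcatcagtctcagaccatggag
PTBP2, 34 nt exon: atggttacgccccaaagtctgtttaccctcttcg

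When these exons are skipped, the mRNA reads as below. Each run starts with the last 24 coding bases before the skipped exon and ends at the new stop codon, in capitals. In FAM188A (52 nt, chr10:15880227-15880278, minus strand) the stop spans the new junction. PHYKPL (131 nt, chr5:177639974-177640104, minus strand) and PKD2 (121 nt, chr4:88979135-88979255, plus strand) are shown because their inclusion differed with depletion or with PMA.
CELF2, 80 nt exon skipped: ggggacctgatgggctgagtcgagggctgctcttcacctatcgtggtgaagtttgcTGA
PTBP2, 34 nt exon skipped: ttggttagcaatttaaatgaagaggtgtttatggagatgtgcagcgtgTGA
FAM188A, 52 nt exon skipped: ctagttgccaagtggaacattctTAA
PHYKPL, 131 nt exon skipped: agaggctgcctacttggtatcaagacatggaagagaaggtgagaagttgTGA
PKD2, 121 nt exon skipped: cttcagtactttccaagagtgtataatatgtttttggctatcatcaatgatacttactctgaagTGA

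Skipping would end the CELF2 protein after 159 of 490 residues and the PTBP2 protein after 356 of 531. FAM188A would keep 136 of 445 residues, PKD2 646 of 968 and PHYKPL 399 of 450. In all 5 the new stop lies 50 nt or more before the last exon junction, the distance used here to predict decay. The distance is 785 nt in CELF2 and 53 nt in PHYKPL, the closest of these to that limit.

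Other members work the opposite way: the gene codes when the exon is skipped, and the exon brings in a stop. Below, each exon is printed from its first base to the stop, in capitals, that the upstream frame meets within it. The exons are C1orf52 (127 nt, chr1:85724618-85724744, minus strand), KLHL42 (103 nt, chr12:27950180-27950282, plus), SGCB (110 nt, chr4:52898018-52898127, minus), TMEM241 (115 nt, chr18:20956791-20956905, minus), IPO11 (232 nt, chr5:61874531-61874762, plus), UPF3B (91 nt, chrX:118974557-118974647, minus), KLHL2 (64 nt, chr4:166242464-166242527, plus) and FMNL3 (115 nt, chr12:50040422-50040536, minus).
C1orf52, 127 nt exon to its stop: cttctccctgagaccccttcccttTGA
KLHL42, 103 nt exon to its stop: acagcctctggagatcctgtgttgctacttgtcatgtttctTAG
SGCB, 110 nt exon to its stop: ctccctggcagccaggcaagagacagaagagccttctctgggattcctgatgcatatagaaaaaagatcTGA
TMEM241, 115 nt exon to its stop: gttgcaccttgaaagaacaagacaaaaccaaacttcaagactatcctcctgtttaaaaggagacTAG
IPO11, 232 nt exon to its stop: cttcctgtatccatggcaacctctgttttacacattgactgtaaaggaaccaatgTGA
UPF3B, 91 nt exon to its stop: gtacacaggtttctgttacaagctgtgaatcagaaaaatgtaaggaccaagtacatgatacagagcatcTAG
KLHL2, 64 nt exon to its stop: cctgctcaatgTGA
FMNL3, 115 nt exon to its stop: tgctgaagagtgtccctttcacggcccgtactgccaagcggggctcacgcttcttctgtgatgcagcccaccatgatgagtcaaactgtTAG

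Inclusion cuts SGCB, a sarcoglycan of the muscle membrane, from 318 to 104 residues, and C1orf52 from 182 to 100. KLHL42, an adaptor of cullin ubiquitin ligases, goes from 505 to 369 residues and the nuclear import receptor IPO11 from 975 to 879. FMNL3 differs from the rest. Its exon lies near the end of the coding region, the stop falls 23 nt before the last junction, and the protein has 1028 residues with the exon against 1027 without, so decay is not predicted for either form.

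The label needs a check, because the listed length of an exon is not always its spliced length. Of the 1186 exons, 214 had both junctions read, and in 51 of these the length between the junctions differed from the listed length, in 24 to a multiple of 3. In GENCODE, 628 members (53.0%) matched an internal exon at the listed bounds. A further 112 matched only with the bounds that their junctions give, and 58 of those spliced lengths were multiples of 3. MAP2K7, listed with 1259 nt, matched a 48 nt exon, APBB2 (550 nt) a 63 nt exon, SLMAP (446 nt) a 90 nt exon and MAP3K4 (188 nt) a 150 nt exon. These 4 therefore keep the frame in GENCODE, against their listed length. A listed last exon was matched by 79 members and a listed first exon by 68, where no frame shift within the gene follows. No match was found for 249, 33 matched with another far junction, and 17 had gene IDs not in GENCODE 29. T lymphocyte markers could be checked only for whether an LSV was listed: 10 of 12 had one (not CD28 or CD2), and 0 of 6 markers of B cells, monocytes and erythroid cells did. The tables hold no expression values, so the depletion of CELF2 was not checked here.

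The members split by how the annotation reads them. Of the 628 matched exons, 280 (44.6%) were coding only when included, 138 (22.0%) only when skipped and 74 (11.8%) in both forms. Coding here means that a complete protein-coding transcript holds the exon, or the skipping junction, inside its reading frame. A further 47 lay in the 5′ UTR, 33 held the start or stop codon, 39 occurred in noncoding transcripts only and 17 in incomplete or decay transcripts only. Among the 280, skipping predicted decay for 232 (82.9%) and left a median of 38.2% of the protein. Among the 138, inclusion predicted decay for 126 (91.3%), and in 110 the stop lay inside the exon, at a median of base 32. In 20 of the 138 the exon also held the start or stop of a complete coding transcript, as in FMNL3.

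Inclusion followed that reading. Exons coding only when included had a median mean inclusion of 83.1%, and 263 of 280 (93.9%) were above 50%. Exons coding only when skipped had a median of 18.7%, and 119 of 138 (86.2%) were below 50%. The form that the annotation reads as coding was thus the major one for most members of each kind. The other form need not lack a reading frame. Of the 138 exons coding only when skipped, 109 were in no complete coding transcript. Frame-keeping variable exons showed the same order. Their median mean inclusion was 84.6% for 187 exons coding only when included and 20.4% for 88 coding only when skipped. Frame-keeping exons were coding in both forms more often, 321 of 664 matched (48.3%) against 74 of 628, a difference that was not tested. Outside the variable range, 924 of 1073 matched frame-shifting exons (86.1%) under 10% were coding when skipped, and 2880 of 3514 (82.0%) over 90% were coding when included.

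**Figure D1:**
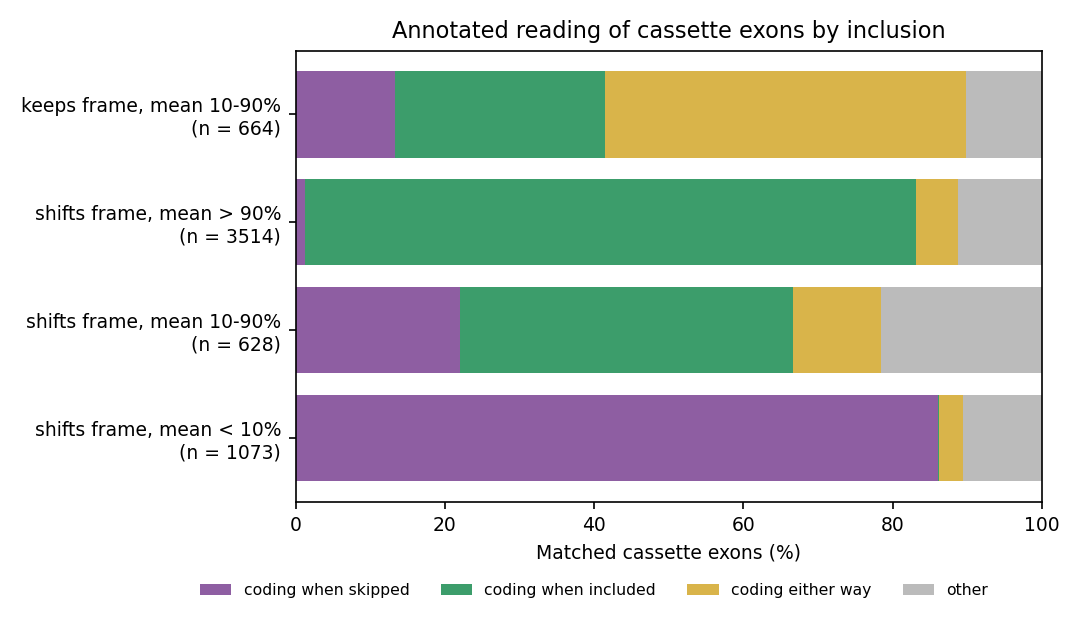
Bars give, on the x axis, the percent of matched cassette exons in each annotated reading, for frame-shifting exons at 3 levels of mean inclusion and for frame-keeping variable exons. Coding when skipped makes up 86.1% of exons under 10%, 22.0% of the variable frame-shifting exons and 1.2% of exons over 90%.

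By group, the 280 exons coding when included had medians of 83.4% in control and 83.4% in depleted cells without PMA, and 83.6% and 80% with PMA. The 138 exons coding when skipped stood at 19.2% and 15.8% without PMA, and at 22.1% and 19.0% with PMA. In the second kind 85 of 138 (61.6%) were lower in depleted cells without PMA and 87 (63.0%) with PMA. Over all members the same shares were 53.5% and 62.0%, and these differences were not tested. The 74 exons coding in both forms went from 80% in control to 70.7% in depleted cells with PMA, and the 47 exons of the 5′ UTR stayed between 51.1% and 56.7%.

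**Figure D2:**
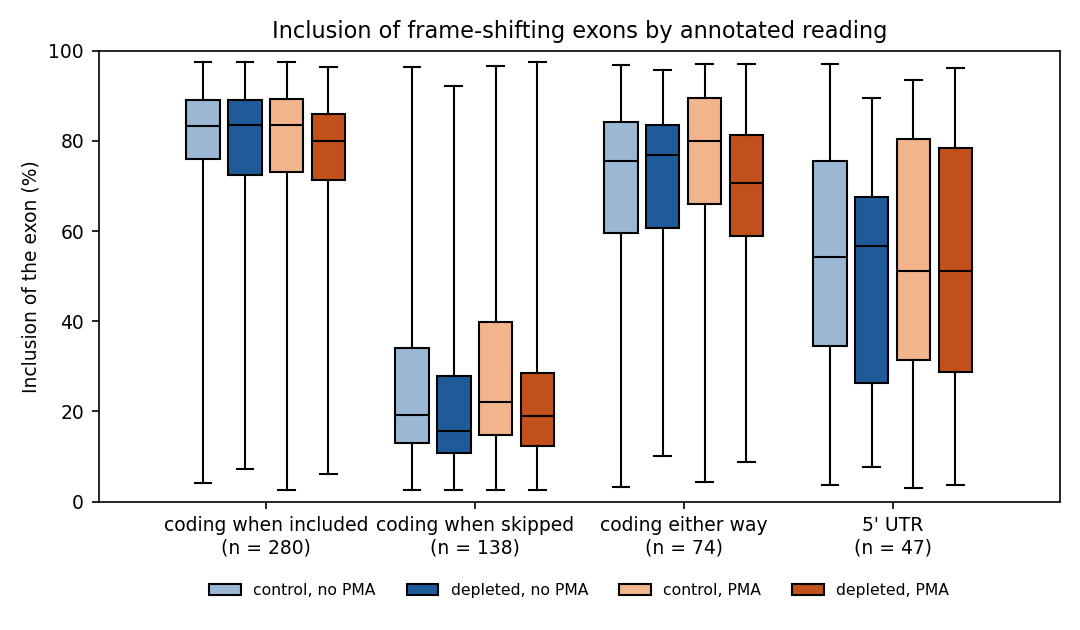
Boxes give the median and quartiles, and whiskers the lowest and highest value, of inclusion (y axis, %) over the exons of each annotated reading in the 4 groups. Exons coding when included sit around 80% to 83.6% and exons coding when skipped around 15.8% to 22.1%, with ranges that overlap.

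Across all 1186 members, 311 had a mean inclusion under 25% and 512 of 75% or more, so the middle was the less filled part. Median inclusion was 66.8% in both unstimulated groups, 67.9% in stimulated control and 65.6% in stimulated depleted cells. The median range over the 4 groups was 17.02 percentage points, and 455 members (38.4%) spanned 20 points or more, against 38.3% of frame-keeping exons. Lengths had a median of 139 nt, from 31 nt in CCDC84 to the 5435 nt listed for the last exon of the kinesin gene KIF1B. Frame-keeping exons had a median of 123 nt. For 214 exons inclusion was read on both sides, in a source LSV of the upstream exon and in a target LSV of the downstream exon. The 2 readings differed by a median of 3.45 points in unstimulated control cells and by 13.0 points at the 90th percentile. In stimulated depleted cells these were 3.55 and 17.0 points. That spread is the nearest to a technical error that the tables allow, since each group has 1 value.

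CELF2 depletion moved 53 members (4.47%) without PMA, 31 higher and 22 lower. An exon counts as called where, in the authors' deposited table, the posterior probability that inclusion changed by 20 points or more reaches 0.95. This is not a p-value, and spread between libraries cannot be read from it. Among all variable cassette exons 4.53% were called, 2.47% higher and 2.05% lower, and among all cassette exons 0.543%. With PMA, 103 members (8.68%) were called, 48 higher and 55 lower, against 9.05% of variable exons (3.92% higher and 5.13% lower) and 1.12% of all cassette exons. The members' shares lie near those of the variable exons as a whole, so these counts are no result about frame-shifting exons as such. Not every called member is known to shift a frame. An internal exon was matched at the listed bounds by 29 of the 53 and by 43 of the 103. Last exons were matched by 4 called members without and 14 with PMA, and first exons by 3 and 6. Junction bounds gave a multiple of 3 for 3 and 5. Called members lay between 25% and 75% mean inclusion in 39 of 53 cases without PMA and 53 of 103 with PMA, against 363 of all 1186. That mean averages the same shares whose change makes the call. A change of 20 points or more also has less room near the ends of the scale. These counts therefore cannot show whether exons of middle inclusion respond more to depletion. In the authors' deposited tables the median absolute expected change, which their model shrinks, was 1.06 points without and 2.65 points with PMA, and 34.0 and 33.7 points among called members.

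Called in both states were 16 members (1.35%, against 1.63% of variable exons), which is 30.2% of those called without and 15.5% of those called with PMA. All 16 moved the same way in both states, 11 higher and 5 lower, and the states share no library. Of the 140 members called in at least 1 state, 111 had the same direction in both. Across members, the depletion effects without and with PMA had a Pearson r of 0.42 and a Spearman rho of 0.44 over 1186 exons of the same 8 libraries, as a description.

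**Figure D3:**
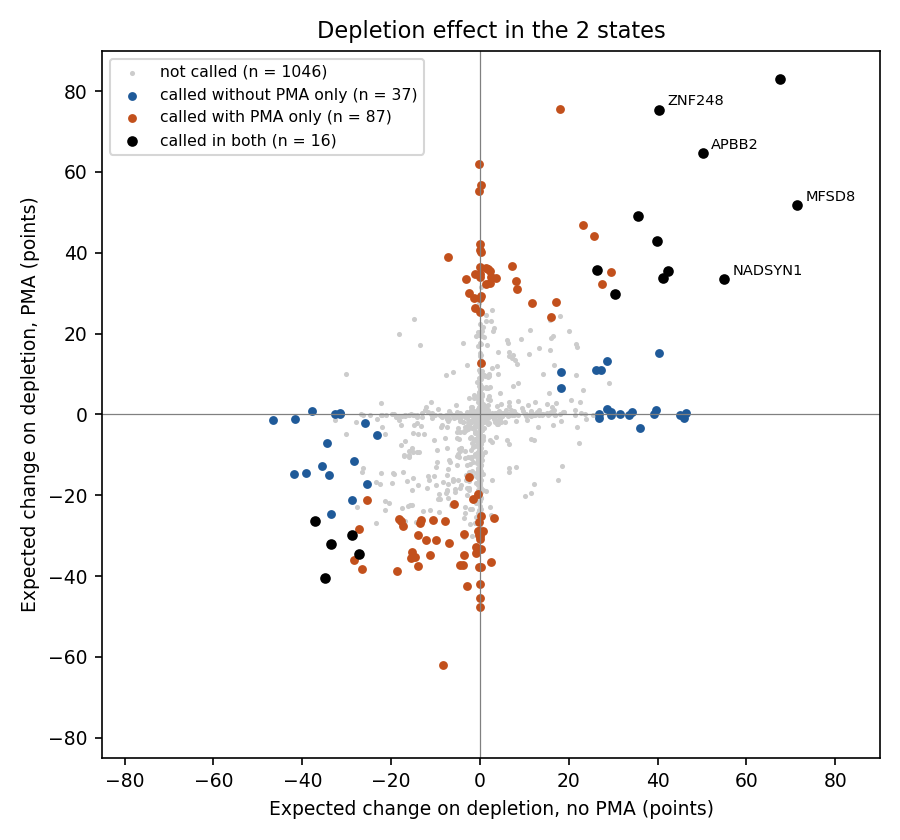
Each point is 1 of the 1186 exons, with the authors' expected change on depletion (depleted minus control, percentage points) without PMA on the x axis and with PMA on the y axis. The 16 exons called in both states, in black, lie at the upper right (11) or lower left (5), while most exons called in 1 state lie near an axis.

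MFSD8, a lysosomal membrane transporter, had the largest change without PMA. It went from 24.6% to 94.1% at a 145 nt exon without PMA and from 16.6% to 67.2% with PMA. The actin-organizing formin FMNL3 went from 46.0% to 86.1% and from 64.6% to 97.5%, the highest value the tables hold. In each, the lowest depleted value stood above the highest control value. NADSYN1, which makes NAD from its acid form, rose from 14.2% to 67.7% and from 22.5% to 55.2% at an exon listed with 539 nt that had no match in GENCODE. ZNF248, a zinc finger gene, went from 55.2% to 94.5% and from 19.5% to 93.1%, also without a match.

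The last exon listed for NCAM1, the neural cell adhesion molecule, rose from 9.8% to 51.1% and from 10.4% to 45.0%. KIAA0391, the nuclease of mitochondrial RNase P, stood at 59.4% and 89.0%, then at 49.5% and 78.7%, at an exon matched with another far junction. TEX30 stood at 66.8% and 92.6%, then at 42.8% and 77.6%, at an exon without a match in GENCODE. Of the 11 exons that rose in both states, 2 keep the frame by their junctions. APBB2, an adaptor of the amyloid precursor protein, went from 19.0% to 67.9% and from 18.2% to 81.2% at what GENCODE gives as a 63 nt exon. For MAP2K7, the kinase that activates JNK, the 48 nt exon went from 47.0% to 81.8% and from 30.7% to 78.5%.

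Lower after depletion in both states were 5 members. PHYKPL, a phospho-lyase of lysine breakdown, stood at 80.6% in control and 52.5% in depleted cells, and with PMA at 92.2% and 63.1%. Its source LSV gave 78.7% and 52% and its target LSV 82.6% and 53.0% without PMA, so the 2 sides differed by far less than control and depleted cells did. NGLY1, the cytosolic N-glycanase, went from 74.8% to 48.2% and from 92.6% to 59.0%. Both of its forms code, for 654 and 558 residues, and neither is predicted to decay. ZNF800 (93.5% to 60.8%, then 97.4% to 66.1%) and DNASE1, a secreted nuclease (37.7% to 3.6%, then 65.9% to 26.5%), were matched to last exons. MOCS1, of molybdenum cofactor synthesis, went from 82.9% to 46.6% and from 97.4% to 71.6% at an unmatched exon.

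**Figure D4:**
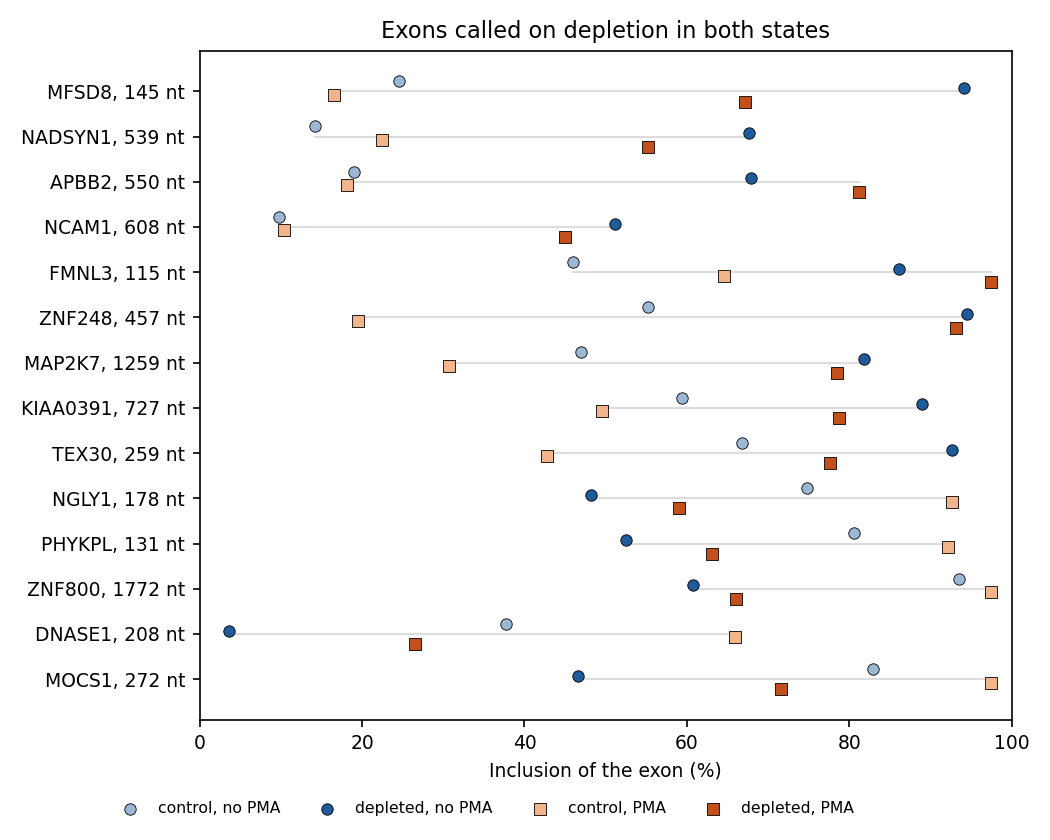
Rows are 14 of the 16 exons called in both states, ordered by the expected change without PMA, and the x axis gives inclusion (%) in the 4 groups, 1 deposited value each. Blue circles are without PMA and orange squares with PMA, and the darker symbol is the depleted group. It lies to the right of the paler one in the upper 9 rows and to the left in the lower 5.

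Among exons coding only when included, 14 (5%) were called without PMA (9 higher, 5 lower) and 21 (7.5%) with PMA (13 higher, 8 lower). Among exons coding only when skipped, 4 (2.9%) were called without PMA (1 higher, 3 lower) and 8 (5.8%) with PMA (1 higher, 7 lower). Over all variable exons 4.53% were called without and 9.05% with PMA. The shares called lie near or below these, so the number of calls is no result about either kind. Counted by form, the coding form was higher after depletion in 12 of 18 called members without PMA and in 20 of 29 with PMA. Those 18 and 29 are 4.31% and 6.94% of the 418 members with 1 coding form. In frame-keeping exons with 1 coding form the counts were 5 of 14 and 13 of 23. Those 14 and 23 are 5.09% and 8.36% of such exons. Neither split was tested. The single member of the second kind that was higher, FMNL3, is the one without predicted decay.

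Without PMA the poison exons of KLHL42, SGCB and TMEM241 were the 3 lower ones. The annotated transcripts that include the exon are decay transcripts only in KLHL42 and SGCB. In TMEM241 a transcript typed as protein-coding includes it too, but no complete one holds it inside its reading frame. KLHL42 went from 47.0% to 6.2%, SGCB from 55.3% to 22.2% and TMEM241 from 48.0% to 7.4%. With PMA they stood at 63.9% and 43.7%, at 65.6% and 46.0%, and at 34.0% and 25.7%, and none was called there. The difference between states was not tested.

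RGS12, a regulator of G protein signalling, was called without PMA, where its 154 nt exon went from 25.8% to 69.6%. With PMA it stood at 41.5% and 38.3%. SLC22A17, a receptor for lipocalin 2, showed the opposite direction at a 106 nt exon whose skipping ends the protein after 336 of 538 residues. It went from 96.7% to 58.6% without PMA and stood at 97.5% and 83.2% with PMA. Of exons read as noncoding or untranslated, ANKRD20A5P was at 38.9% and 84.1%, and the 5′ UTR exon of the sodium channel gene SCN3A at 51.1% and 14.1%. CRHR1-IT1, unmatched in GENCODE, was at 7.3% and 52%. ANKRD20A5P is a pseudogene whose reads may be shared with its relatives. FAM192A went from 51.4% to 6.0%, TMPRSS3, a serine protease, from 94.8% to 60.1%, and an exon of ENSG00000225485 from 82.7% to 49.1%, and none of the 3 matched GENCODE at its listed bounds. SLC22A17 and TMPRSS3 have a mean below 90% only through unstimulated depleted cells, the group where they are low.

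With PMA the largest falls among exons matched inside a gene were in IPO11, RAD52 and SETMAR. IPO11 was at 2.5%, the lowest value the tables hold, in 3 groups and at 49.0% in stimulated control cells. RAD52, of homologous recombination, stood at 11.0% and 14.0% without PMA and at 53.0% in control and 8.8% in depleted cells with PMA. SETMAR, a histone methyltransferase fused to a transposase, stood at 35.1% and 33.9%, then at 73.8% and 32.8%. In these 3, stimulated control cells were the group apart. IPO11 has a mean above 10% only through that group, so its pattern was fixed by the selection, and the same holds for DDX12P, SC5D and PARP12 below. C1orf52 followed the same pattern, with 25.2% and 20.4% without PMA and 67.0% and 33.6% with PMA, and both of its LSVs were called.

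Other falls with PMA lay outside matched internal exons. PARP12, an ADP-ribosyltransferase, went from 40.4% to 2.7%, and SC5D, a sterol desaturase, from 40.9% to 4.0%. NAA16, an auxiliary subunit of an N-terminal acetyltransferase, went from 82.4% to 45.4%. TRIM5, an antiviral restriction factor, went from 83.9% to 46.6%, after 89.7% and 63.7% without PMA, where its probability of 0.947 in the authors' deposited table missed the limit. For NAA16 and TRIM5 the junctions on both sides give spliced lengths of 143 and 101 nt. DDX12P, a pseudogene whose reads may be shared with DDX11 and its copies, fell from 63.1% to 2.6%.

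FAM188A, a deubiquitinase, had the largest rise among members called only with PMA. Its 52 nt exon was at 60.8% and 79.6% without PMA and at 2.7% in control and 76.5% in depleted cells with PMA. SLMAP, a membrane-associated protein, was at 88.7% and 84.1%, then at 22.8% and 83.3%. TCEAL1 was at 71.3% and 65.5%, then at 25.8% and 79.7%. In all 3 stimulated control cells were far below the other groups. FOXP1, a forkhead transcription factor, differed: its listed last exon was at 3.7%, 7.7% and 7.0% in the first 3 groups and at 62.4% in stimulated depleted cells, the group through which its mean passes 10%. The 5 largest differences between the expected changes of the 2 states were those of FAM188A, SLMAP, FOXP1, TCEAL1 and DDX12P. In the authors' deposited tables they were 18.04 without and 75.64 points with PMA for FAM188A, and 0.13 and 56.80 points for FOXP1. KIF1B, with 18.5% and 42.1% and then 13.7% and 59.3%, rose with depletion under PMA too.

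PMA itself was read from the control groups, as the difference of 2 separately quantified tables, without a probability. Control inclusion was at least 20 points higher with PMA in 89 members (7.5%, against 7.51% of variable exons) and at least 20 points lower in 64 (5.4%, against 4.9%). In depleted cells 41 were higher (3.46%, against 3.59%) and 45 lower (3.79%, against 3.78%). Only 20 members passed 20 points in both kinds of cells, of which 18 in the same direction. The PMA differences in control and in depleted cells, which share no library, had a Pearson r of 0.27 and a Spearman rho of 0.28 across 1186 members. Counted by form, 18 members with 1 coding form had that form at least 20 points higher with PMA in control cells and 36 had it at least 20 points lower, of 418. In depleted cells the counts were 7 and 17, and in the 275 frame-keeping exons with 1 coding form they were 12 and 18 in control cells. The split was not tested.

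CELF2 was among the members with lower inclusion in stimulated control cells. Its 80 nt exon was at 91.7% in unstimulated and 53.9% in stimulated control cells, and at 97.3% and 89.3% in depleted cells. PTBP2 went from 30.5% to 2.6% at its 34 nt exon in control cells and from 42.2% to 35.7% in depleted cells. PKD2, the polycystin 2 channel, went from 79.8% to 41.4% and from 87.6% to 73.0%. GRK4, a kinase of G protein-coupled receptors, went from 88.8% to 48.8% in control cells and from 79.2% to 85.3% in depleted cells. Of these 4 exons, CELF2 and PTBP2 were read on 1 side only. In GRK4 and PKD2 both sides were read, and they disagreed in stimulated control cells. The source and the target gave 59.7% and 37.9% in GRK4, and 51.5% and 31.4% in PKD2. In the authors' deposited table only the target sides reached 0.95 with PMA, and the source sides had probabilities of 0.655 and 0.883. Each of these 4 exons codes when included, and skipping predicts decay. Depletion raised all 4 with PMA, and in the authors' deposited table the expected change was 36.28 points for CELF2 and 33.95 for PTBP2, with probabilities of 0.998 and 0.997. Without PMA it was 1.30 and 2.42 points. CELF2, PKD2 and GRK4 were named for their fall with PMA in control cells, and PTBP2 from a gene list. The depletion effect with PMA is taken against the same stimulated control value. A rise in the exons named for that fall was thus favoured by the choice. The CELF2 values of depleted cells come from the transcripts that depletion left, at a depth that is unknown. Without stimulated control cells the CELF2 mean would lie above 90%, so the low value there is what placed it among the members, as it did TBRG1.

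Further members lower with PMA in control cells were FBRSL1, from 91.3% to 39.8% at a first exon, and TBRG1, from 96.5% to 57.3%. The kinesin light chain gene KLC1 went from 57.8% to 18.8% at a 67 nt exon. Its skipping changes the protein from 639 to 618 residues without predicted decay. ZFAND4 went from 74.1% to 36.3%. In depleted cells the same 4 went from 69.4% to 25.4%, from 97.4% to 96.9%, from 50.4% to 44.4% and from 73.1% to 52.1%.

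Higher with PMA in control cells, beside IPO11, C1orf52, RAD52, DDX12P and CRHR1-IT1, were FLT3LG, SSH2, PYROXD2, ZDHHC21 and a PLSCR3 readthrough gene. FLT3LG, the ligand of the receptor FLT3, went from 39.1% to 82.9% in control and from 57.4% to 65.8% in depleted cells. SSH2, a cofilin phosphatase, went from 17.1% to 62.2% and from 12.5% to 33.1%. In stimulated control cells 19 members were at 97.5%, the highest value of the tables, against 4 in unstimulated control, 7 in unstimulated depleted and 1 in stimulated depleted cells. Control groups enter both this comparison and the depletion effects, so the 2 are not independent where stimulated control cells stand apart.

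**Figure D5:**
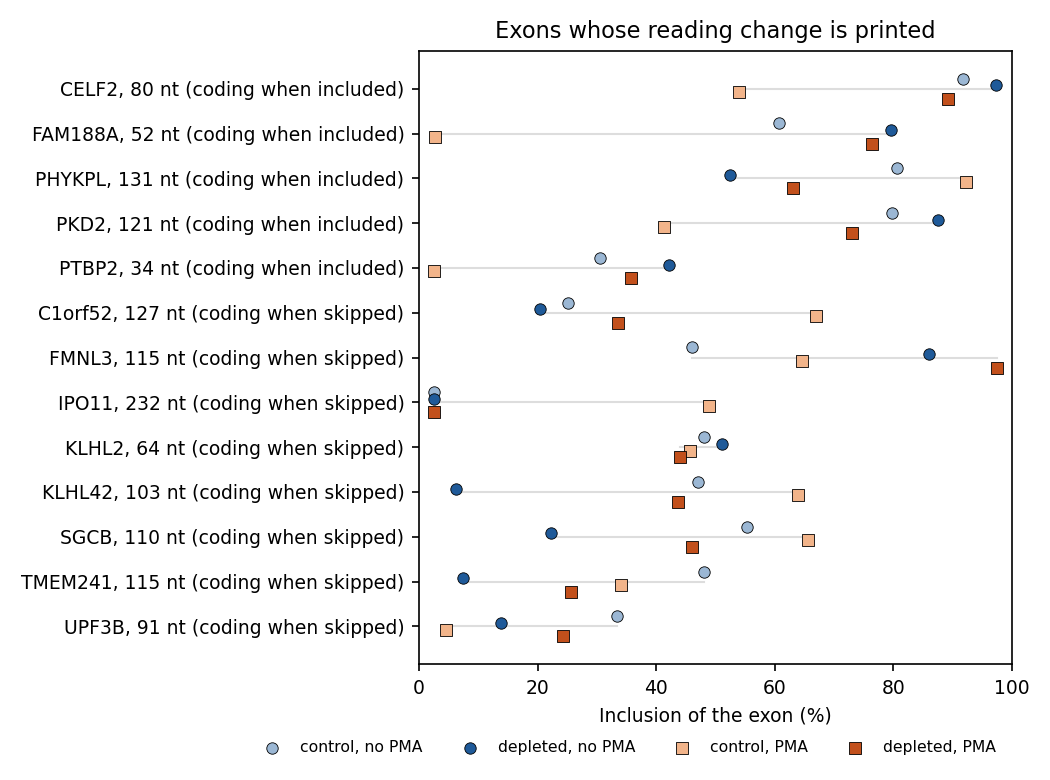
Rows are the exons whose sequences are printed, with their listed length and annotated reading, and the x axis gives inclusion (%) in the 4 groups, 1 deposited value each, slightly offset so that points do not cover each other. Stimulated control cells (pale squares) lie at 2.7% in FAM188A and 2.6% in PTBP2, and at 49.0% in IPO11, where the other 3 groups are at 2.5%.

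The members were also counted in lists of genes chosen with earlier results of these data known, beside a median absolute expected change over all variable exons of 1.11 points without and 2.84 with PMA in the authors' deposited tables, and beside called shares of 4.53% without and 9.05% with PMA. With so few members a list's count says little against those shares. Splicing regulators had 15 members. With PMA 2 were called higher, CELF2 and PTBP2, and 2 lower, while 0 were called without PMA. The lower ones were HNRNPL, an hnRNP that represses CD45 exons, from 77.5% to 41.0% at a 716 nt exon, and the nuclear matrix RNA-binding protein MATR3, from 54.2% to 12.7% at a 125 nt exon, neither matched in GENCODE. The list's median was 2.42 points without and 9.34 with PMA. T cell receptor, MAPK and NF-kappaB signalling had 16 members, with 1 higher without PMA (MAP2K7), and 3 higher and 1 lower with PMA. NFATC1, the calcium-regulated factor of T cell activation, stood at 61.2% and 90.5%, then at 61.0% and 95.3%, at a first exon. A last exon of the interferon receptor gene IFNAR2 went from 36.4% to 64.4% with PMA. The MAP3K4 exon went from 34.6% to 4.3%.

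Mitosis, cell cycle and centrosome genes had 24 members, 1 higher without PMA and 3 lower with PMA. The spindle-pole organizer NUMA1 rose from 46.7% to 74.5% without PMA. With PMA CEP70, a centrosomal protein, fell from 96.1% to 59.4% at an 80 nt exon, CEP44 from 97.3% to 62.8%, the value that brings its mean below 90%, and CDK2, at a listed last exon, from 97.5% to 71.4%. Ubiquitin ligases and deubiquitinases had 37 members, with FBXL4 higher without PMA, FAM188A higher with PMA and RNF121 and TRIM5 lower with PMA. RNF121 was at 92.7% and 60.2% at a 38 nt exon. Vesicle trafficking genes had 18, with the endocytic GTPase DNM2 higher without PMA (9.4% to 38.2%) and the lipid transfer protein VPS13C higher with PMA (2.5% to 26.2%), called at its source side only. Each has a mean above 10% only through the groups where it is high.

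Chromatin regulators had 32 members and 1 call, SETMAR. DNA repair genes had 20 and 1 call, RAD52. The 10 members in nonsense-mediated decay and RNA turnover genes, the 5 in the core spliceosome and the 5 in apoptosis genes had 0 calls in either state, which is no result about these genes, since lists this small would hold under 1 call each per state at the shares over all variable exons. UPF3B, a factor of the decay pathway itself, carries a poison exon that stood at 33.4% and 13.9% without PMA and at 4.6% and 24.3% with PMA. DIS3, the exosome nuclease, had a 68 nt exon at 26.2% and 26.1%, then at 46.6% and 30.1%, but its source and target LSVs lay far apart, at 70.2% and 22.9% in stimulated control cells.

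Averaged over their LSVs, some members had near-even shares in all 4 groups. The smallest ranges of the averaged values among those with a mean of 40% to 60% were 3.0 points in GDPGP1, 3.5 in BOLA3, 5.0 in MYH10, 5.6 in LCORL and 7.1 in KLHL2. The GDPGP1 value averages 2 sides that went opposite ways, from 44.3% to 57.5% with PMA at the source and from 64.0% to 44.7% at the target in control cells. In BOLA3, MYH10 and KLHL2 the 2 sides were read too, and LCORL on 1 side only. BOLA3, of iron-sulfur cluster assembly, was at 57.8%, 56.1%, 54.3% and 54.4% at an 89 nt exon, with 2 coding forms of 107 and 101 residues. The KLHL2 exon was at 48.0%, 51.2%, 45.8% and 44.1%. Its stop lies 50 nt before the last junction, exactly at the limit for predicted decay, and leaves 588 of 593 residues. At the edges of the range, the members just inside were TEX9 (a mean that rounds to 10%) and PGLS (10.02%) below and DMXL2 and EMP3 (both rounding to 90%) above. Just outside stood ZRANB1 (9.94%) and DLG1 (9.93%), and KIAA0232 and MTFP1 (both 90.02%).

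Genes with 2 or more members numbered 103, and 4 of them had 2 or more called members, among them NADSYN1, CAPN7 and TMEM260. The last 2 are named here after their values were seen. CAPN7, a calpain protease, had exons of 136 and 146 nt at 51.4% and 61.4% in stimulated control cells, and at 84.3% and 95.3% in stimulated depleted cells. TMEM260 had the most members, 4. Its 115 nt exon went from 55.3% to 94.5% without PMA. Its listed last exon stood at 64.0% in stimulated control cells and 97.1% in stimulated depleted cells. Without PMA that last exon was at 96.8% in control and 97.5% in depleted cells, and the 146 nt exon of CAPN7 at 97.1% and 97.5%. In both of these exons every group but stimulated control cells lay above the limit of 90%. The low value in stimulated control cells is thus what placed these exons among the members.

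Words were counted on the transcribed strand of the 628 matched exons, where they may overlap each other. TGTTT occurred in 118 (18.8%), against 14.4% of 9172 matched cassette exons and 10.4% of 664 frame-keeping variable exons. TGTGT occurred in 12.9% and GTGTG in 12.9%, against 12.1% and 12.3% of all. Of the 36 matched members called lower in at least 1 state, 11 held TGTTT, 7 TGTGT and 5 GTGTG. Of the 30 called higher, 5, 2 and 3 did. TTTCTT was in 3 exons of each set, and so was GCATG. These sets are small, exon length was not taken into account and no difference between them was tested. TTTCTT and GCATG were in 6.5% and 12.7% of members and in 5.5% and 11.5% of all. The flanking introns were not analysed here.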

How the data were processed

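Per the labels' protocols, libraries were made from polyadenylated RNA with a TruSeq stranded kit. STAR 2.5.1b and hg19 appear in the submitters' processing notes, with no role given, and per the file headers the values come from MAJIQ through VOILA. The authors deposited 2 tables, 1 for each state, which give per junction an expected share (0.025 to 0.975) for each group, an expected change shrunken by their model and a posterior probability that the share changed by 0.20 or more. The 2 libraries of a group are 1 value there, so no spread between replicates, depth or test over libraries could be had, and the probability is the authors' only measure of error. No per-sample column was left out (0 such columns).

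The share of the shorter junction served as inclusion. LSVs with the same skipping junction were averaged after they were joined, the highest probability was kept, and the direction of a called exon was the sign of its averaged expected change. Differences with PMA are differences of deposited shares. Matched transcripts were taken from GENCODE 29 (GRCh38) with no conversion of coordinates: of 7487 gene IDs, 7425 were found. For skipping, the exon was deleted from the top-ranked complete coding transcript that includes it. For inclusion, it was inserted into the top-ranked one that skips it, and stops were read in the altered sequence. In these transcripts before the change, all 354 and 212 annotated stops were reached in frame. A stop 50 nt or more before the last junction predicts decay. Scripts used Python 3.11.15 and pandas 2.3.3 and were tested on simulated tables.

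The named exons are those called in both states, the 10 largest called rises and falls in each state, the 10 largest rises and falls with PMA in control cells, called or most changed members of 10 gene lists, exons at the edges, the least variable ones and the 5 with the largest difference between states. Some exons that this rule names are not reported here. Members and lists were chosen with earlier results of these data known. Alternatives changed the call rule, the inclusion range, the order of averaging, the LSVs behind an exon, de novo junctions and exon bounds.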

Additional observations from a re-analysis of the deposited data

How the results depend on the processing

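The 8 alternatives gave 44 values, of which 31 stayed within 1.5 times the value reported. A probability of 0.99 left 29 calls without and 68 with PMA, and at that limit 38 of the calls with PMA were higher and 30 lower, against 48 and 55. An expected change of 20 points with no probability gave 101, 190 and 32 calls (without PMA, with PMA, both), and with PMA 68 of these were higher and 122 lower. Only exons with both LSVs left 214 members, 9, 22 and 2 calls, and 23 members with a PMA difference of 20 points in control cells. That setting, and the range of 20% to 80% with 531 members, keep fewer exons by construction. In that range the median absolute expected change was 2.3 points without and 4.44 with PMA, against 1.06 and 2.65. Leaving out exons whose listed bounds differ from their junctions kept 1027 members, with 45 and 84 calls, and leaving out LSVs with de novo junctions 922, with 46 and 85. No paired analysis was possible because the tables hold 1 value for each group. Leaving out a library could not be run for the same reason, and the depth behind an LSV is unknown.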

Other observations

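Members at the ends of transcripts are given apart here. The 79 matched to last exons had a median length of 326 nt, and the 68 matched to first exons 250.5 nt. Last exons stood at a median of 39.5% in control and 38.5% in depleted cells without PMA, and at 46.4% and 59.7% with PMA, where 9 were called higher and 5 lower. Without PMA 1 was higher and 3 were lower. Over all variable exons 9.05% were called with and 4.53% without PMA, and the difference from them was not tested. First exons stayed between 56.4% and 61.3%, with 2 higher and 4 lower with PMA. For these exons the share weighs a transcript that starts or ends there against one that runs on, and none of these differences was tested.

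Genes named ZNF had 38 members, with 1 called higher and 2 lower without PMA and 2 higher and 4 lower with PMA. Members under antisense, LINC, clone or Ensembl names numbered 44, with 1 higher and 1 lower without PMA and 1 higher and 3 lower with PMA. Over all variable exons 4.53% were called without and 9.05% with PMA. With so few members these counts say little against those shares, and no difference was tested.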
